A study of Mus musculus with 2 samples.

Results

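Non-dividing checkpoint-positive CD8 T cells were described among CD45+ tumor-infiltrating immune cells (TIIs) of B16-OVA tumors. B16-OVA is a mouse melanoma line that carries the model antigen ovalbumin. A cell was chosen by its unique molecular identifiers (UMIs), each of which counts 1 captured mRNA molecule. It had at least 2 UMIs of Cd3d, Cd3e and Cd3g together, at least 2 of Cd8a and Cd8b1, none of Cd4, and at least 2 of the checkpoint genes Pdcd1, Lag3 and Havcr2. Dividing cells were left out, so a member had no UMI of Mki67 or Top2a, at most 1 of the S phase genes Ung, Cdc6, Ccne2 and Dtl, and at most 1 of the mitosis genes Cdc20, Ccnb2, Ube2c and Cenpa. The rule was met by 803 of 13470 cells, 473 of 7241 with control and 330 of 6229 with creatine. These members are called checkpoint-positive cells here. CD8 T cells that passed the same conditions on division but had at most 1 checkpoint UMI are called checkpoint-low cells, 333 with control and 322 with creatine. CD8 T cells that failed a condition on division are called dividing cells, 1858 and 1460.

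The study asked what creatine does to TIIs in mice with melanoma. Both groups were B6 mice of 8 to 12 weeks of age with subcutaneous B16-OVA tumors, and no allele differed between them by the labels. Control mice were given PBS and creatine-treated mice 10.5 mg of creatine per day by intraperitoneal injection. On day 14, 4 tumors were combined for each group, DAPI-CD45.2+ cells were sorted, and 10000 cells were loaded for each 3′ droplet library. The protocol entry of the control sample describes the creatine injection as well, so the control was taken by its title and treatment. The methods elsewhere give another harvest day and number of mice. Each condition is thus 1 pooled library with no replicate, and the mice behind a cell are unknown. The control library held 80434564 UMIs in 7649 barcodes and the creatine library 72898494 in 6503. Checkpoint-positive cells held 3570332 and 3079575 UMIs, with a median of 7307 and 8956 UMIs and 2225 and 2558.5 genes per cell. Of the barcodes, 30 occurred in both libraries, and none of them was a checkpoint-positive cell.

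CD8 T cells recognize peptides on MHC class I through the T cell receptor and kill their targets with perforin and granzymes. Under lasting stimulation in tumors, they take up the inhibitory receptors PD-1 (Pdcd1), LAG-3 (Lag3) and TIM-3 (Havcr2), and the transcription factor TOX is known to sustain this state, which is called exhaustion. A smaller pool that keeps TCF-1 (Tcf7) and SLAMF6 is known to renew itself and to give rise to the cells with most checkpoint receptors.

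T cell genes that the rule did not use were abundant. Trac, the constant chain of the alpha receptor, stood at 687 counts per 1e+06 UMIs (CPM) in control and 917 CPM in creatine cells, and Trbc2 at 1589 and 1812 CPM. In macrophage-like cells of the same libraries, which have no CD3 or CD8 UMI and at least 5 UMIs of C1qa, C1qb, C1qc and Lyz2, Trac stood at 9.42 and 7.44 CPM. Foxp3, the factor of regulatory T cells, stood at 3.64 and 1.95 CPM, and Ncr1, a receptor of NK cells, at 2.24 and 5.84 CPM. The γδ chain gene Trdc had 5 UMIs in each library. As whole lists, the 5 markers of CD4 and regulatory T cells summed to 38.4 and 50.3 CPM, led by Ikzf4 in control and Izumo1r in creatine cells, and Cd4 was at 0 by the rule. The 7 NK markers summed to 89.1 and 113 CPM, led by Gzma, and the 6 γδ markers to 24.4 and 36.7 CPM, led by Tcrg-C2 with 46 and 100 UMIs. In all cells outside CD8 T cells, these lists stood at 113 and 99.7 CPM, at 771 and 2243 CPM, and at 38.9 and 102 CPM. The label of non-dividing cells also held outside its own genes. Of the 30 S phase genes outside the rule, 29 were lower than in dividing cells. All 31 genes of G2 and mitosis tested were lower as well, with a median log2 difference of -4.56. Cdk1, the kinase that drives entry into mitosis, stood at 4.48 and 6.17 CPM, against 137 and 141 CPM in dividing cells. Such genes are bound to follow the rule on division.

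RNA of other cell types was present. The 13 markers of macrophages and monocytes summed to 1267 CPM in control and 1642 CPM in creatine cells, and all 13 were detected. Ly6c2, which CD8 T cells express too, was the most abundant with 2126 and 2360 UMIs. The 12 dendritic cell markers summed to 930 and 364 CPM, led by Cd74, and Ccl22 was at 0 in both libraries. The 7 B cell markers summed to 68.6 and 53.9 CPM, the 6 melanoma markers to 29.1 and 19.8 CPM, the 5 neutrophil markers to 7.56 and 3.90 CPM, and the 6 markers of endothelium and fibroblasts to 10.1 and 14.3 CPM. At least 10 UMIs of other cell types, with Ly6c2 not counted, were held by 21 control cells (4.44%) and 9 creatine cells (2.73%). Whether these are doublets or free RNA was not tested. Xist stood at 813 and 787 CPM and the Y-linked genes Ddx3y, Eif2s3y and Kdm5d were at 0 and Uty at 1 UMI in control and 0 in creatine cells, while the methods name male mice unless another sex is given.

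The share of CD8 T cells that were checkpoint-positive and non-dividing was 17.8% (95% interval 16.3 to 19.3) in control and 15.6% (14.1 to 17.2) in creatine tumors. The intervals are exact Clopper-Pearson intervals, which like every interval given here cover counting error only. Of non-dividing CD8 T cells alone, 58.7% (55.2 to 62.1) and 50.6% (46.7 to 54.5) were checkpoint-positive. The order depended on how depth and RNA of other cell types were handled. When each cell was first reduced to 4000 UMIs, 24.5% (22.8 to 26.3) of control and 26.7% (24.8 to 28.8) of creatine CD8 T cells met the rule, and 58.4% and 58.9% of the non-dividing ones. In cells of 4000 to 12000 UMIs, taken without such a reduction, the shares were 29.5% (27.1 to 32.1) and 27.2% (24.3 to 30.2) of CD8 T cells, and 63.3% (59.3 to 67.1) and 48.6% (44.2 to 53.1) of the non-dividing ones, whose intervals did not overlap. Without the cells that held at least 3 UMIs of other cell types, Ly6c2 counted, the order among CD8 T cells stayed, at 26.1% (20.8 to 31.8) and 22.4% (18.3 to 26.8). Of the non-dividing ones, 59.1% (49.6 to 68.2) and 71.3% (62.4 to 79.1) were then checkpoint-positive. With 1 library for each condition, no change of the share with creatine can be read from these shares.

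The checkpoint genes chose the members, so their values are a description. Pdcd1 had a UMI in 85.0% of control and 87.6% of creatine members, Lag3 in 86.3% and 91.8%, and Havcr2 in 46.3% and 53.6%. All 3 were found in 34.2% of control and 45.2% of creatine cells, while Havcr2 alone made 4 control cells and 1 creatine cell members. The sum of their UMIs ran from 2 to 22 per control cell with a median of 5, and from 2 to 57 per creatine cell with a median of 8. Just inside the threshold, 82 control and 27 creatine cells had a sum of 2, and just outside it 85 and 66 non-dividing cells had a sum of 1. Summed over the cells, Pdcd1 stood at 315 and 341 CPM, Lag3 at 356 and 532 CPM, and Havcr2 at 112 and 146 CPM. The log2 ratio of creatine to control was 0.11 (-0.01 to 0.24) for Pdcd1, 0.58 (0.47 to 0.69) for Lag3 and 0.38 (0.18 to 0.58) for Havcr2.

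Checkpoint-positive cells differed from checkpoint-low cells in genes of effector function, exhaustion and memory. UMIs were summed per library and cell group, and edgeR's quasi-likelihood test with the library as a block was run on the 4 sums. A gene was called at a Benjamini-Hochberg adjusted p under 0.05, a fold of at least 1.5 and the same direction in both libraries. Genes tested had at least 200 UMIs over both groups together. Where a gene reached this only through the group where it is high, its call is a description and no support. Counts and medians over the lists below can include such genes. Of 5529 genes tested, 436 were higher (7.89%) and 409 lower (7.40%) in checkpoint-positive cells. DESeq2 called 200 higher and 137 lower, and 186 and 189 were called by edgeR when the rule was applied after each cell was reduced to 4000 UMIs. The libraries are the only samples, and 1 residual degree of freedom is left, so the variance rests on moderation over all genes.

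**Figure D1:**
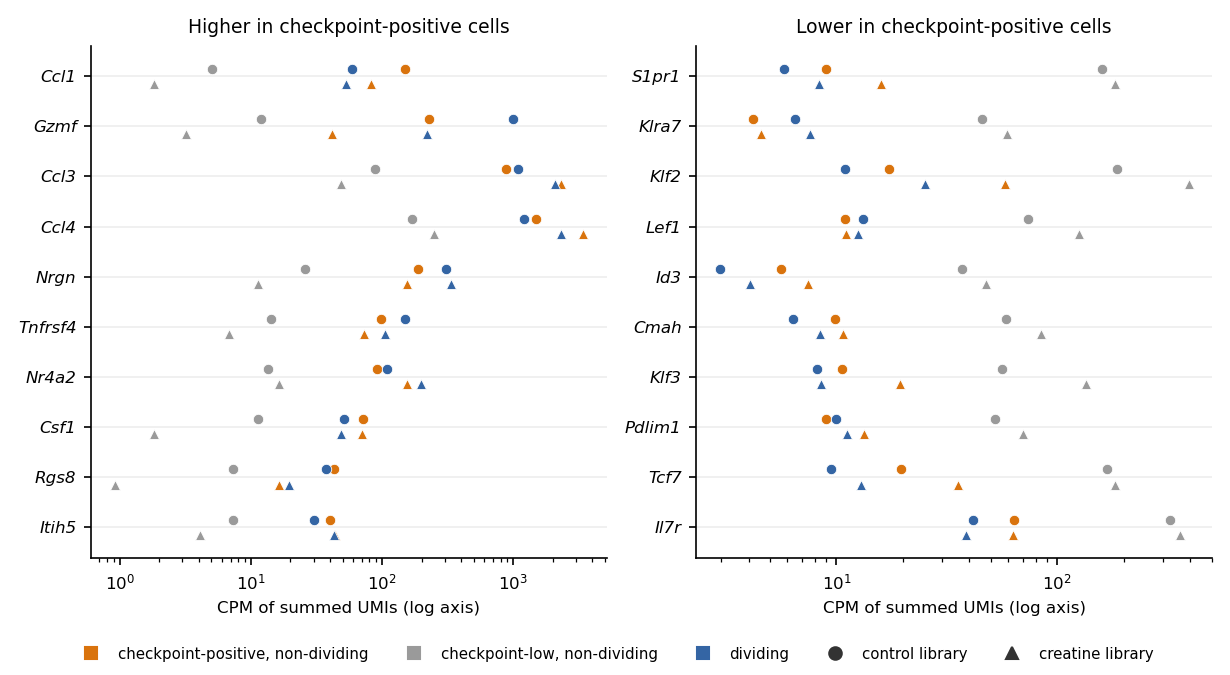
Levels of 10 genes higher (left) and 10 genes lower (right) in checkpoint-positive than in checkpoint-low CD8 T cells, as CPM of summed UMIs on a log axis. Circles are the control and triangles the creatine library, and colors mark the 3 groups of CD8 T cells. Dividing cells sat near the checkpoint-positive cells for most of these genes, while Gzmf was at 998 CPM in dividing control cells and 228 CPM in checkpoint-positive ones.

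Other inhibitory receptors were higher too. Of 15 listed, 8 were tested, 6 were higher and none was lower, with a median log2 difference of 1.83 against -0.01 over all genes. Ctla4, which competes for B7 ligands, stood at 92.7 CPM in control and 69.5 CPM in creatine checkpoint-positive cells, and at 24.8 and 13.7 CPM in checkpoint-low cells. The difference was 2.02 (adjusted p = 1.1e-06, edgeR), and the groups did not overlap. Cd200r1 (2.66), Cd200 (2.28), Cd244 (2.14), Entpd1 (1.63), the CD39 ecto-nucleotidase, and Cd38 (1.41) were higher as well. Ctla4 and Cd200r1 passed the filter on low counts only through checkpoint-positive cells, so their rises were bound to follow. The count of 6 and the median include them, and their calls are no support. Of the 15 listed, only 2 had at least 200 UMIs in checkpoint-low cells alone. The same thus holds for any of the 6 that is not one of these 2. Cd160 differed by 0.57, under the fold of 1.5, and Vsir by -0.08.

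Of the transcription factors linked to exhaustion, 16 of 18 were tested, 11 were higher and 3 lower. Tox stood at 402 CPM in control and 372 CPM in creatine checkpoint-positive cells, against 135 and 71.2 CPM in checkpoint-low cells. This difference of 1.89 (adjusted p = 2.8e-07, edgeR) left no overlap between the groups. Nr4a2, an orphan nuclear receptor induced by receptor signaling, differed by 2.96, Irf8 and Rbpj by 1.88 each, Prdm1, which encodes BLIMP-1, by 1.61, and Bhlhe40 by 1.48. Batf, Irf4, Nfatc1, Id2 and Ikzf3 were also higher. The lower factors were Nfatc2 (-0.87), Ikzf2 (-0.76) and Eomes (-0.59). Nr4a1, at 15.4 and 32.5 CPM in checkpoint-positive and 7.33 and 48.4 CPM in checkpoint-low cells, overlapped between the groups and did not pass.

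Genes of progenitor and memory T cells went the other way. Of 18 listed, 14 were tested, 13 were lower and 1 was higher, and the median log2 difference was -2.36. Only 6 of the 18 had at least 200 UMIs in checkpoint-positive cells alone, namely Klf2, Xcl1, Slamf6, Satb1, Foxo1 and Il7r. The others tested, Tcf7 and S1pr1 among them, passed the filter on low counts only with UMIs of checkpoint-low cells. Their falls are a description and no support, and the count of 13 and the median include them. Tcf7 stood at 19.6 CPM in control and 35.4 CPM in creatine checkpoint-positive cells, against 168 and 182 CPM in checkpoint-low cells, a difference of -2.76 (adjusted p = 1.4e-08, edgeR). S1pr1, the receptor for egress from tissue, stood at 8.96 and 15.9 CPM against 159 and 183 CPM, a difference of -3.87. Lef1 differed by -3.21, Klf2, a factor that turns on S1pr1, by -3.10, Id3 by -2.76 and Il7r by -2.50. Ccr7 (-2.22), Satb1, Dapl1, Slamf6 (-1.55), Foxo1 and Bach2 were lower too. Xcl1, a chemokine for cross-presenting dendritic cells, was the member that was higher (1.70), but its difference was -1.10 when the rule was applied after each cell was reduced to 4000 UMIs. Klra7, an NK receptor of the Ly49 family, stood at 4.20 and 4.55 CPM against 45.7 and 58.9 CPM. It passed the filter on low counts only through checkpoint-low cells, so its fall was bound to follow. Cmah, Klf3, Pdlim1 and Itgb7 were also among the 12 genes with the largest falls in both libraries.

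Killing genes were mostly higher. Of 20 listed, 16 were tested, 12 were higher and 1 was lower. Prf1, which encodes perforin, stood at 557 CPM in control and 876 CPM in creatine checkpoint-positive cells, against 126 and 114 CPM in checkpoint-low cells, a difference of 2.48 (adjusted p = 1.4e-08, edgeR). Gzmb, on chromosome 14 at 56258838 to 56262260 (GRCm38), stood at 721 and 1405 CPM against 226 and 337 CPM, a difference of 1.80. Gzmf, a granzyme of strongly stimulated cells in the same cluster, differed by 4.04 and Gzmc by 2.00. Serpinb6b, a granzyme inhibitor, Nkg7, Cst7, Tnfsf10 and Fasl differed by 0.92 to 1.09. Gzma was the member that was lower, at 39.5 and 65.9 CPM against 322 and 279 CPM, a difference of -2.61.

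Cytokines and chemokines were among the largest differences. Of 22 listed, 14 were tested, 9 were higher and 1 was lower. Only 8 of the 22 had at least 200 UMIs in checkpoint-low cells alone, Ccl3, Ccl4 and Ifng among them. The others tested passed the filter on low counts only with UMIs of checkpoint-positive cells. Any rise of theirs is a description and no support, and the count of 9 can include them. Ccl3, an inflammatory chemokine, stood at 880 CPM in control and 2298 CPM in creatine checkpoint-positive cells and at 88.6 and 48.9 CPM in checkpoint-low cells, so that the groups did not overlap. The difference was 4.35 (adjusted p = 1.3e-07, edgeR). Ccl4, its neighbor on chromosome 11, differed by 3.41, Csf1, the macrophage growth factor, by 3.45 and Ifng by 2.82. Ccl1, the ligand of CCR8, differed by 5.01. However, its UMIs came from 18 control and 12 creatine cells, and a single cell held 53.3% and 43.3% of them. Ccl9, Spp1 and Cxcl10, chemokines and a matrix protein that macrophages make in quantity, were higher as well (Cxcl10 at -0.81 after that reduction), and the fraction that came with other cells' RNA was not tested. Il16 was the lower member (-0.69). Ccl5 differed by 0.45 and was among the most abundant transcripts of both groups.

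Receptors followed in part. Of 13 costimulatory receptors tested, 7 were higher and none was lower, led by Tnfrsf4 (OX40, 2.98) and Tnfrsf9 (4-1BB, 2.66). Among chemokine receptors and residency genes, 2 of 18 were higher and 7 lower. Cxcr6, the CXCL16 receptor of tumor-resident T cells, stood at 831 and 939 CPM against 345 and 231 CPM (difference 1.57), and Cx3cr1 differed by 1.41. Cxcr3 (-1.47), Cd69 (-1.71) and Itgb7 (-2.31) were lower. Of 9 NK receptors tested, 5 were higher, among them Klre1 (1.85), Klrc1 (1.42) and Klrd1 (1.28), whose products form inhibitory or activating lectin dimers, and Klra7, Cd7 (-1.12) and Fcer1g (-0.66) were lower. Il2ra (1.57) and Il10ra (1.28) were among 5 higher cytokine receptors of 18, and Il4ra (-1.61) among 4 lower ones. Of 28 genes of T cell receptor signaling, 7 were higher, led by Rgs16 (3.37) and Sh2d2a (1.46), and Dgka, a brake on diacylglycerol signals, was lower (-1.04). Glycolysis genes were higher in 6 of 19 and lower in 1. Slc16a3, the lactate exporter, differed by 1.88 and Gapdh by 0.87. Of 16 apoptosis genes, 5 were higher, among them Bcl2a1d (2.08), and Bcl2 was lower (-1.43). Of 7 effector factors, Hif1a was higher (0.87) and Rora lower (-0.67). None of the 9 heat shock chaperones or the 22 genes of MHC class I presentation passed. Over all genes, 7.89% were higher and 7.40% lower, so the counts for effector factors and chaperones are no result about these lists.

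Of the type I interferon-stimulated genes (ISGs), 14 of 31 tested were lower than in checkpoint-low cells, and 29 of 38 were higher than in dividing cells. Interferons switch on such genes through STAT and IRF factors, and the IRF9 complex binds the interferon-stimulated response element (ISRE). Against checkpoint-low cells, 1 type I ISG was higher and the other 16 did not pass, and the median was -0.56. Ifit3, which restrains viral RNA, stood at 33.6 CPM in control and 56.8 CPM in creatine checkpoint-positive cells, against 111 and 137 CPM in checkpoint-low cells, a difference of -1.55 (adjusted p = 8.9e-07, edgeR). Ifit1 differed by -1.14, Isg15, a ubiquitin-like protein, by -0.93 and the factor Irf7 by -1.01. Ifi27l2a was the member that was higher (0.71). Of 14 GTPases of the GBP and IRG families, which interferon-γ induces, 8 were lower and none was higher, among them Tgtp2 (-1.55), Iigp1 (-1.05) and Igtp (-0.88). Checkpoint-low cells of the creatine library also held melanoma RNA, with Dct at 486 CPM against 5.20 CPM in checkpoint-positive cells. Markers of other cell types were lower in checkpoint-positive cells as well, 4 of 7 tested for macrophages and monocytes (median -1.20) and the 1 for B cells (-1.59). Both NK markers tested were lower too (median -1.60). These were Gzma and Eomes, already counted above as a killing gene and an exhaustion factor, so they do not mark RNA of NK cells here. Macrophage-like cells held Isg15 at 316 and 504 CPM and Ifit3 at 82.0 and 134 CPM. The part of such RNA in these differences was not tested. Nrgn (3.16), Rgs8 (2.83) and Itih5 were among the 12 largest rises outside the lists. Rgs8 had 154 and 50 UMIs in checkpoint-positive and 13 and 2 in checkpoint-low cells. It passed the filter on low counts only through the former, so its rise was bound to follow.

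The stretches of promoter sequence below show the ISRE letters in 4 such genes that also differed between the libraries. They come from RefSeq (GRCm38.p6), read 5′ to 3′ on the strand of the gene, and end before its start site. Capitals mark the letters GAAA followed after 2 bases of any kind by GAAA or, for the other strand, TTTC followed likewise by TTTC, and neighboring matches overlap in Isg15.
Ifit1, chr19:34640765-34640834, plus strand: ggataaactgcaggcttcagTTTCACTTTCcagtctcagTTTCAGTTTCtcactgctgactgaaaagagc
Ifit3, chr19:34583353-34583422, plus strand: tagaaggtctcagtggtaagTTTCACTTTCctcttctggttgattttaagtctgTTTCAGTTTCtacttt
Isg15, chr4:156200847-156200916, minus strand: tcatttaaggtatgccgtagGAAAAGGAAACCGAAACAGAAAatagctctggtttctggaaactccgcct
Igtp, chr11:58199486-58199555, plus strand: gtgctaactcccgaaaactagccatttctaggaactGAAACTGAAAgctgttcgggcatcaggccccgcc
In the 250 bases before the start site, 13 of 22 type I ISGs measured in checkpoint-positive cells and found in the promoter table held these letters, as did 5 of 6 GTPases, against 3.46% of 27025 genes. A match is a description of the sequence and not a site shown to be bound.

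Against dividing CD8 T cells, checkpoint-positive cells were higher in most ISGs tested and in 8 of 21 cytokines and chemokines. They were lower in the granzymes Gzmf and Gzmc and in 6 of 24 glycolysis genes. Of 9777 genes tested, 668 were higher (6.83%) and 1120 lower (11.5%), 343 and 793 with DESeq2, and 190 and 562 after that reduction. All 26 replication-dependent histone genes tested were lower, and several of the 12 largest falls were genes of mitosis such as Cenpf, Hmmr and Nuf2, all of which follow the rule on division. Gzmg, another granzyme of the cluster on chromosome 14, had no UMI in checkpoint-positive cells and 1420 control and 4 creatine UMIs in dividing cells. Gzmf stood at 228 and 41.2 CPM against 998 and 220 CPM in dividing cells (difference -2.17, adjusted p = 7.9e-07, edgeR), and Gzmc at 40.3 and 27.3 CPM against 471 and 93.3 CPM (-2.89). Gzmg passed the filter on low counts only through dividing control cells, so its fall was bound to follow. Of the other 18 killing genes tested, 6 were lower, while Fasl, Ctsw, Nkg7 and Tnfsf10 were higher. Of the 20 listed, 16 had at least 200 UMIs in checkpoint-positive cells alone. Some of the 18 thus also passed the filter only with UMIs of dividing cells, and any fall of theirs was bound to follow. Gzmb differed by -0.56 and Prf1 by -0.22, both under the fold of 1.5.

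Of 38 type I ISGs tested against dividing cells, 29 were higher and none was lower, with a median of 0.75 against 0.02 over all genes. Ifit3 stood at the 33.6 and 56.8 CPM given above, against 13.3 and 20.3 CPM in dividing cells (1.47, adjusted p = 3.4e-05, edgeR). Ifi208 differed by 1.55, Ifit1 by 1.10, and 9 of 14 GTPases were higher. Ifit3 was thus highest in checkpoint-low and lowest in dividing cells in both libraries. Median depth had the reverse order, with 5053 and 6215 UMIs in checkpoint-low and 14136.5 and 16508.5 UMIs in dividing cells, and its part was not tested.

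Ccl5 stood at 7382 and 12668 CPM in checkpoint-positive cells against 2554 and 4269 CPM in dividing cells, a difference of 1.60 (adjusted p = 2.3e-07, edgeR). Progenitor genes were higher in 10 of 16 and lower in 1, and Tcf7 differed by 1.32, Slamf6 by 1.02 and Klf2 by 1.05 (-0.31 after that reduction), from a low level in both groups. Of 19 chemokine receptors and residency genes, 8 were higher, among them Cxcr3 (1.35), Itga1 (1.32), Ccr2 (1.20) and Cxcr6 (0.88). Cd38, Cd244 and Cd200 were among 6 of 14 other inhibitory receptors that were higher, while Klrg1 was lower (-1.33). Of 18 exhaustion factors, Ikzf3 was the 1 that passed, and Tox differed by 0.47. With 6.83% of all genes called higher, 1 of 18 is no result about this list. Among glycolysis genes, 1 was higher and 17 of the 24 did not pass, and the 6 lower ones had Eno3 (-1.04), Ldha (-0.87) and Tpi1 (-0.86) in front. Of the largest rises, Hp, Il1b, Chil3 and Ifitm6 are genes of myeloid cells. Chil3 had 291 UMIs in control checkpoint-positive cells, and 9 of them remained without the 21 cells that held most RNA of other types.

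Checkpoint-positive cells varied among themselves. They were split by Havcr2, with at least 1 UMI in 219 control and 177 creatine cells and none in 254 and 153. The comparison was made within each library, with no test, and a gene was called where the fold was at least 1.5 in the same direction in both. Of 4005 genes, 21 were higher (0.524%) and 21 lower (0.524%) in Havcr2-positive cells. Havcr2-positive cells were also deeper, with a median of 8033 against 6879.5 UMIs in control and 9739 against 8181 in creatine cells. When each cell was reduced to 4000 UMIs before the rule and the split, 16 genes were higher and 6 lower.

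**Figure D2:**
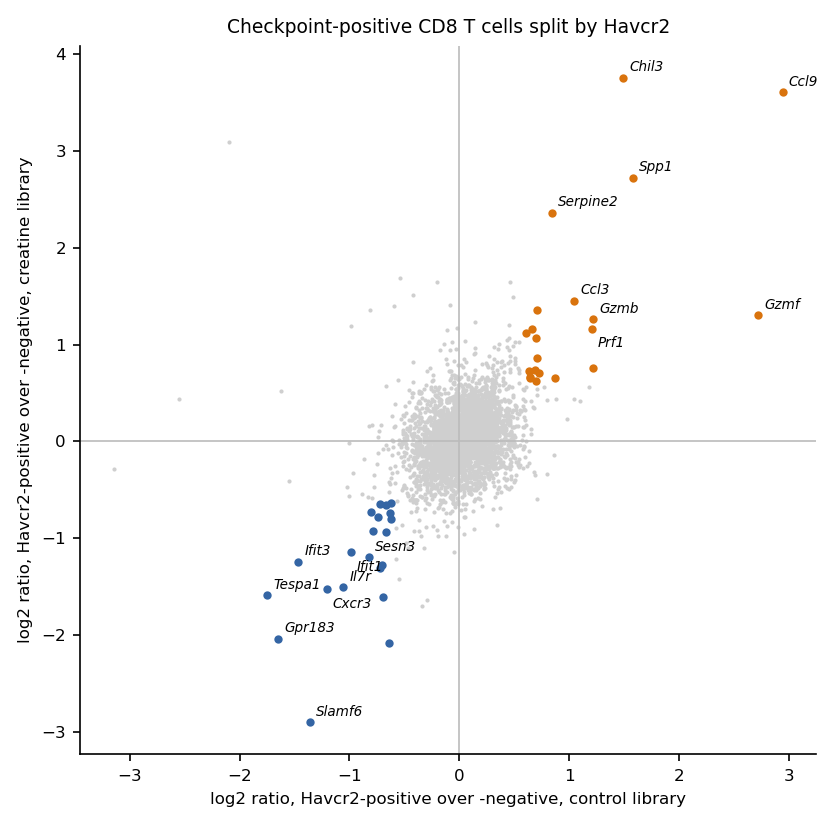
Log2 ratio of CPM between Havcr2-positive and Havcr2-negative checkpoint-positive cells in the control library (horizontal axis) and the creatine library (vertical axis), 1 point per gene. Orange and blue points are the 21 higher and 21 lower genes, with Gzmb and Prf1 near 1.2 on both axes and Slamf6 low on both.

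Gzmb stood at 1008 CPM in Havcr2-positive and 433 CPM in Havcr2-negative control cells, and at 1848 and 768 CPM in creatine cells. The log2 ratios were 1.22 (1.10 to 1.34) and 1.27 (1.16 to 1.37). Prf1 had ratios of 1.21 and 1.17, so that both killing genes moved alike in the 2 libraries. Ccl3 (1.04 and 1.45), Ifng (0.64 and 0.66), Ccl4 and Tnfrsf9 were higher too, and Gzmf had ratios of 2.72 and 1.30. Ccl9 (2.94 and 3.61), Spp1, Serpine2 and Chil3 led the rises, and Chil3 had a control ratio of -0.73 after that reduction. Chil3, Cd74 and H2-Aa are genes of myeloid or antigen-presenting cells, and Havcr2 itself is expressed by these cells.

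Gpr183, an oxysterol receptor that guides cells in lymphoid tissue, stood at 20.1 CPM in Havcr2-positive and 62.9 CPM in Havcr2-negative control cells, and at 20.4 and 83.8 CPM in creatine cells. The ratios were -1.65 (-2.23 to -1.09) and -2.04 (-2.62 to -1.49). Slamf6 (-1.36 and -2.90), Il7r (-1.06 and -1.51), Cxcr3 (-1.21 and -1.53), Tespa1 and Sesn3 were lower as well. Ifit3 (-1.47 and -1.24) and Ifit1 (-0.99 and -1.14) were the ISGs among the lower genes, but Ifit3 had a control ratio of 0.84 after that reduction. Gzma was lower (-0.70 and -1.61), against the direction of Gzmb. None of 8 other inhibitory receptors and none of 14 exhaustion factors was called, which at 0.524% of all genes in each direction is no result about these lists.

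Between creatine and control, checkpoint-positive cells were higher in interferon-γ, chemokines, granzyme B, perforin and ISGs, and lower in Gzmf, MHC class II genes and the noncoding Gm10076. For each library the UMIs of these cells were added up and expressed as CPM, with the log2 ratio and its exact 95% interval. A gene was called where both libraries together had at least 200 UMIs and the ratio was at least 1.5-fold. Of 4005 genes, 91 were higher (2.27%) and 48 lower (1.20%), and the median log2 ratio was 0.04. With mitochondrial, ribosomal protein and histone genes left out of the totals, 67 were higher and 74 lower, so the split between rises and falls depended on the scaling. With 1 library for each condition, no test was possible, and mouse, tumor and library effects cannot be told apart from creatine.

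**Figure D3:**
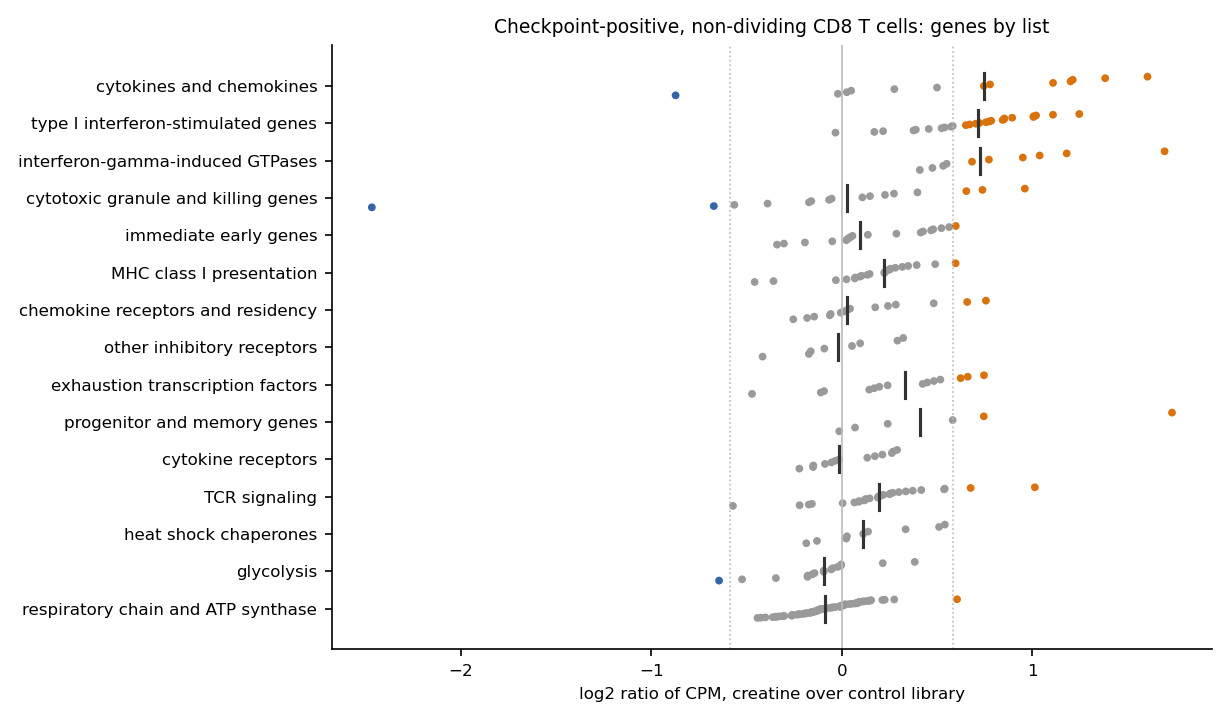
Log2 ratio of CPM, creatine over control library, in checkpoint-positive CD8 T cells, 1 point per gene with at least 200 UMIs, by gene list. Black bars are medians and dotted lines the 1.5-fold limits, with orange above and blue below them. The 3 lists at the top have medians between 0.71 and 0.75, and the others lie nearer to 0.

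Cytokines and chemokines were higher in 7 of 13 and lower in 1, with a median log2 ratio of 0.75. Ifng, on chromosome 10 at 118441046 to 118445892, stood at 250 CPM in control (893 UMIs in 278 cells) and 761 CPM in creatine cells (2345 UMIs in 232 cells). The ratio was 1.61 (1.49 to 1.72), and it was 1.58 when each cell had the same weight, although a single creatine cell held 17.8% of the UMIs. Ccl3 stood at 880 and 2298 CPM, a ratio of 1.38 (1.32 to 1.45), and Ccl4 at 1482 and 3410 CPM, a ratio of 1.20 (1.15 to 1.25). Ccl5 (0.78), Xcl1 (0.75), Spp1 (1.11) and Cxcl10 (1.21) were higher as well, Cxcl10 with a ratio of -0.18 in cells of 4000 to 12000 UMIs. Some of these UMIs lay in few cells. For Cxcl10, 1 cell held 51.8% of the control and 27.0% of the creatine UMIs, and for Xcl1 39.9% of the creatine UMIs. Ccl1 was the member that was lower (-0.87), in 18 and 12 cells, and its ratio was 0.52 after reduction to 4000 UMIs. Csf1, Tgfb1 and Il16 had ratios of -0.02, 0.03 and 0.05.

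Of 16 killing genes, 3 were higher and 2 lower. Gzmb stood at 721 CPM in control and 1405 CPM in creatine cells, a ratio of 0.96 (0.89 to 1.03), and Prf1 at 557 and 876 CPM, a ratio of 0.65 (0.57 to 0.74). Gzma had a ratio of 0.74 (0.42 to 1.06) at a level of 39.5 and 65.9 CPM, and of -0.087 without the cells that held at least 3 UMIs of other types. Gzma is not among the markers in that count, which left out 405 control and 243 creatine checkpoint-positive cells. The sign of its ratio thus depended on this setting. Gzmf stood at 228 and 41.2 CPM, a ratio of -2.47 (-2.75 to -2.20), and its UMIs came from 73 control and 17 creatine cells. Serpinb6b was lower (-0.67). Fasl (-0.17), Gzmk (-0.16), Ctsw (-0.05), Srgn (0.11) and Tnfsf10 (0.15) stayed under the limit, so the 2 granzymes with most UMIs in control cells moved in opposite directions while most other killing genes moved little.

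Type I ISGs were higher in 16 of 26 with none lower, and 25 of the 26 had a ratio above 0. The median was 0.71. Isg15 stood at 40.6 CPM in control and 96.4 CPM in creatine cells, a ratio of 1.25 (0.96 to 1.54). Ifit1, one of the genes whose promoter is shown above, stood at 28.3 and 61.0 CPM, a ratio of 1.11 (0.75 to 1.47), and Ifit3 at 33.6 and 56.8 CPM (0.76). Rtp4 (1.02), Irf7 (1.01), Ifi213 (1.01), Ifi206, Ifi208, Isg20 and Zbp1, a sensor of Z-form nucleic acid, followed, and Samd9l had the lowest ratio (-0.03). GTPases were higher in 6 of 10 and all 10 ratios were above 0, with Iigp1 at 20.4 and 66.2 CPM (1.70), Gbp2 at 38.7 and 87.7 CPM (1.18), Gbp9 (1.04), Igtp (0.95), Irgm1 (0.77) and Gbp3 (0.68). Outside CD8 T cells, 10 of 16 GTPases and 7 of 41 type I ISGs were higher and 1 ISG was lower, with medians of 0.63 and 0.37. Macrophage-like cells held Gbp2 at 365 and 751 CPM, Iigp1 at 207 and 310 CPM and Isg15 at 316 and 504 CPM, above the levels in checkpoint-positive cells, and the part of their RNA in these ratios was not tested. The receptor chain Ifngr1 (-0.09) and the kinase Jak1 (0.13) were not called. When the rule was applied after reduction to 4000 UMIs, 7 type I ISGs were called. Without the cells that held at least 10 UMIs of other cell types, 17 were called, and without those that held at least 3, Ly6c2 counted, which left out 405 control and 243 creatine cells, 690 genes had enough UMIs and no type I ISG was called. In the cells that were left, Ifit3 had a ratio of -0.61 and Gbp2 of -0.17.

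Single genes outside these lists were higher as well. Klf2 had the highest ratio of the 91, 1.73 (1.31 to 2.18), at 17.4 CPM in 32 control cells and 57.8 CPM in 48 creatine cells with a UMI, and it stood at 109 and 260 CPM in macrophage-like cells. Casp1, the inflammasome protease, stood at 20.5 and 60.1 CPM (1.55), with the same ratio of 1.55 outside CD8 T cells and 38.6 and 132 CPM in macrophage-like cells. Trim25, a ubiquitin ligase of RNA sensing, stood at 20.2 and 48.1 CPM (1.25), and the kinase Oxsr1 at 39.5 and 88.6 CPM (1.17). Cxcl9 had a ratio of 1.51, in 32 control and 31 creatine cells, 0.03 without the cells that held at least 10 UMIs of other types, and -1.18 after reduction to 4000 UMIs. Macrophage-like cells had 763 and 1149 CPM of Cxcl9 and 300 and 1004 CPM of Cxcl10. Lyz2, a macrophage gene, had a ratio of 0.69, but of -0.33 without the cells that held at least 10 UMIs of other types and of -0.98 in cells of 4000 to 12000 UMIs. Lyz2 is itself among the markers counted, so nothing is read from its ratio of -0.33. Of the exhaustion factors, Nr4a2 (0.75), Maf (0.66) and Batf (0.62) were higher, while Tox had a ratio of -0.11 (-0.22 to 0.00). Rgs16 (1.01) and the receptor chain Trbc1 (0.68) were the 2 of 28 genes of T cell receptor signaling that were called. Cxcr3 (0.76), Itgb7 (0.66, and -0.13 without the cells that held at least 3 UMIs of other types) and Slamf1 (0.60) were higher among receptors.

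**Figure D4:**
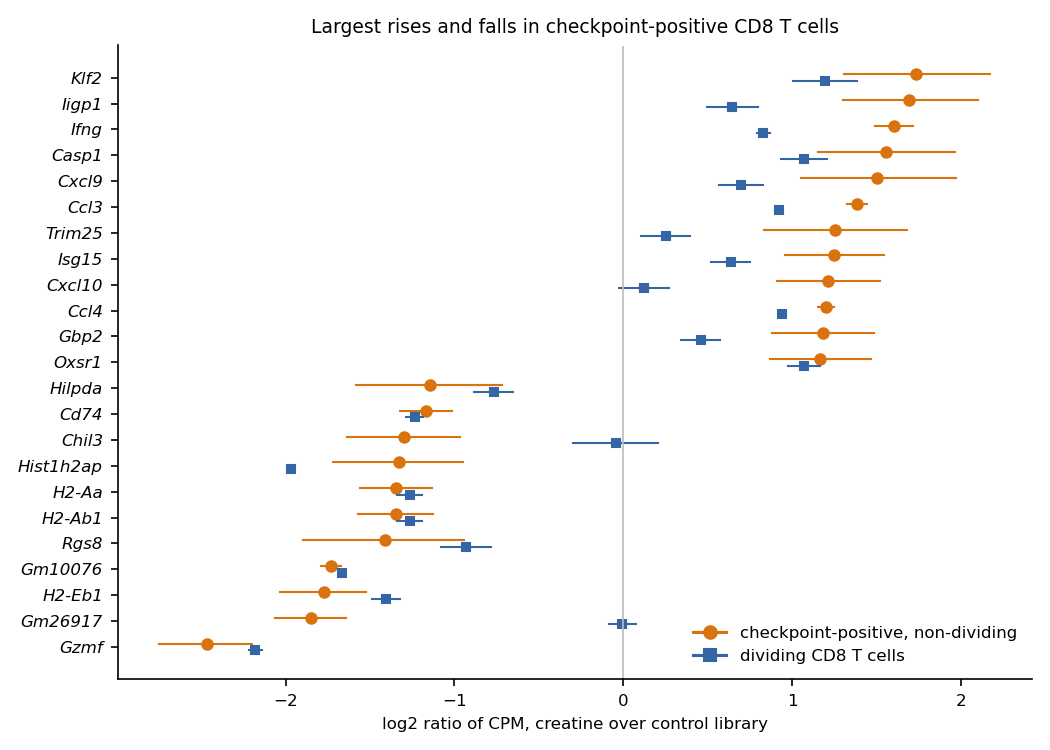
The 12 strongest rises and 11 of the 12 strongest falls among called genes in checkpoint-positive CD8 T cells, as log2 ratio of CPM of creatine over control with exact 95% intervals for counting error (orange circles), beside the same ratio in dividing CD8 T cells (blue squares). Ifng, Ccl3 and Ccl4 lie above 0 in both, while Gm26917 and Chil3 lie below 0 in checkpoint-positive cells and near 0 in dividing ones.

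Of the progenitor and memory genes, 6 of 18 had enough UMIs and 2 were higher, Klf2 and Xcl1, with a median log2 ratio of 0.41, while Slamf6 (0.58), Satb1 (0.24), Foxo1 (0.07) and Il7r (-0.01) were not called. Exhaustion factors were higher in 3 of 14 and chemokine receptors and residency genes in 2 of 15, with none lower in either list. The lists that follow had at most 1 call each, and nothing is read from single calls in lists of this size. None of 8 other inhibitory receptors (median -0.02), none of 13 cytokine receptors (-0.01), none of 8 NK receptors and none of 9 heat shock chaperones (0.11) was called, and 1 of 18 immediate early genes, Dusp5, was. Glycolysis had a median of -0.09 over 16 genes and Eno1 was its 1 lower gene (-0.64). Of the 75 listed for the respiratory chain or ATP synthase, 1 was called, Cycs, the electron carrier cytochrome c, and the median was -0.09. MHC class I presentation had 19 of 22 ratios above 0, a median of 0.22 and 1 call, Tapbpl. Genes of creatine itself were scarce. The transporter Slc6a8 had 3 control and 1 creatine UMIs and the kinase Ckb 41 and 29, while these genes stood at 23.1 and 195 CPM in macrophage-like control cells.

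The largest falls were of several kinds. H2-Eb1 (-1.78), H2-Ab1 (-1.35), H2-Aa (-1.34) and Cd74 (-1.17) present antigen on MHC class II and were the 4 dendritic cell markers with enough UMIs. They were lower outside CD8 T cells too (-0.91, -0.75, -0.73 and -0.67 in the same order), where 7 of 12 dendritic cell markers were called lower, and in dividing cells (-1.40, -1.27, -1.27 and -1.24), while the ratios in checkpoint-low cells were 0.07, -0.47, -0.13 and -0.11. Macrophage-like cells held Cd74 at 7390 and 5582 CPM, and the part of RNA from other cells in the fall was not tested. Cd74 stood at 355 CPM in control and 158 CPM in creatine cells, and 1 creatine cell held 62.4% of its UMIs. Without the cells that held most RNA of other types, the ratios of these 4 genes ran from -2.64 to -2.02. The 4 genes were not among the markers by which those cells were left out, while other dendritic cell markers and macrophage markers were. The fall thus stayed in the cells that were left, and its cause was not tested. The noncoding Gm10076 (-1.73) was lower in every group of cells compared, with a ratio of -1.64 outside CD8 T cells. Gm26917 had a ratio of -1.85, but 1 control cell held 70.9% of its control UMIs, and the ratio was 0.018 without the cells that held at least 10 UMIs of other types. Chil3 (-1.30) came from 16 and 14 cells, and its ratio was 0.0023 without the same cells. Rgs8 (-1.41), the histone gene Hist1h2ap (-1.33) and Hilpda, a lipid droplet protein of hypoxic cells (-1.14), were spread over 103, 172 and 106 control cells.

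Most of these ratios had the same sign in the other CD8 T cells. Of the 91 higher genes, 88 were above 0 in dividing and 70 in checkpoint-low cells, and of the 48 lower genes, 47 and 40 were below 0. Outside CD8 T cells, 80 of the 91 were above and 37 of the 48 below 0. Of all genes, 5642 of 9610 were above 0 in dividing, 1471 of 2476 in checkpoint-low cells and 5325 of 10749 outside CD8 T cells. By the call at 1.5-fold, 1.87% of 9610 were higher and 3.43% lower in dividing cells, and 2.50% of 2476 higher and 0.889% lower in checkpoint-low cells. Of the 139 called genes, 22 had a ratio that was at least 1.5-fold beyond that in dividing cells, and 11 genes did after reduction to 4000 UMIs. Ifng was one of them, with 1.61 against 0.83 in dividing cells, a difference of 0.77, and Gzmb another, with 0.96 against 0.08, a difference of 0.88. Irf7 (difference 0.82), Iigp1 (1.05) and Gbp2 (0.72) were of the same kind. Ccl5 (0.04), Zbp1 (0.04) and Spp1 (0.04) moved alike in both groups. Ccl3 had a ratio of -0.86 in checkpoint-low cells, where its level was low. No test of these differences was possible.

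Shares of cells with a UMI, after each cell was thinned to 2000 UMIs, were higher with creatine for Ifng, Ccl3, Prf1 and Gzmb. Ifng was found in 28.5% (24.5 to 32.9) of 459 control and 40.5% (35.1 to 46.0) of 326 creatine cells, and in 0.962% and 1.24% of macrophage-like cells, which should lack it. Unthinned, these shares were 58.8% and 70.3% at the median depths given above, and 5.99% and 6.74% in macrophage-like cells at 9407 and 9611 UMIs. Ccl3 was found in 38.3% of control and 54.3% of creatine cells, against 13.9% and 9.01% of macrophage-like cells. Prf1 was found in 47.5% (42.8 to 52.2) and 58.9% (53.3 to 64.3), against 2.41% and 2.59% of macrophage-like cells. Gzmb was found in 50.8% (46.1 to 55.4) and 59.2% (53.7 to 64.6), with intervals that overlapped, against 3.95% and 4.45% of macrophage-like cells. Ccl5 was found in 91.7% and 89.3%, against 11.6% and 12.1% of macrophage-like cells, while its CPM was higher with creatine. Tcf7 was found in 3.92% (2.34 to 6.13) and 4.91% (2.83 to 7.85), against 27.6% and 28.8% of checkpoint-low and 0.192% and 0.207% of macrophage-like cells. The shallower cells left out were 14 control and 4 creatine cells.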

How the data were processed

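Per the labels, 10,000 sorted TIIs of each group were made into 3′ libraries, and the submitters' processing notes name Cell Ranger 3.0.2 and mm10. The deposited values are raw counts of UMIs per gene and barcode, before any normalization. Barcodes with at most 25% mitochondrial UMIs were kept. No doublet caller was run, and cells with many markers of other types were left out as an alternative instead. The members and gene lists were chosen with earlier results of these data known. UMIs were summed per library and cell group. Between cell groups, edgeR 4.0.16 (R 4.3.3; TMM, quasi-likelihood test, library as block, Benjamini-Hochberg adjustment) was run on genes with at least 200 UMIs, without the genes of the rule, and DESeq2 1.42.0 as an alternative. Between libraries, ratios of CPM were given with exact conditional binomial intervals, with no test. Shares of cells were taken after thinning to 2000 UMIs. Genes were named from the lists (up to 8 members with most UMIs and any member called) and from the 12 largest differences in each direction (8 for Havcr2), and a few of them are not reported here. Scripts used Python 3.11.15, numpy 2.4.6, scipy 1.17.1 and pandas 2.3.3, and were tested on simulated data.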

Additional observations from a re-analysis of the deposited data

Results flagged for a closer look

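Of 4005 genes, 6 had creatine to control ratios of opposite sign in checkpoint-positive and dividing cells, each at least 1.2-fold with intervals off 0, and the difference was not tested for any of them. The log2 ratio in checkpoint-positive and in dividing cells was 0.66 and -0.50 for Maf, 0.69 and -0.43 for Lyz2, 0.50 and -0.61 for Ccl9, 0.54 and -0.47 for Slfn5, 0.28 and -0.69 for Fcer1g, and 0.56 and -0.33 for Ier3. Without the cells that held at least 10 UMIs of other cell types, the ratio of Lyz2 in checkpoint-positive cells was -0.33. Lyz2 is itself among the markers counted, so nothing is read from this value.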

How the results depend on the processing

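Between creatine and control, no paired analysis was possible because each condition has 1 library, so no replicate could be left out either. Between cell groups, the library was the block. The share of checkpoint-positive cells among CD8 T cells, control and creatine, was 24.5% and 26.7% with the rule applied after reduction to 4000 UMIs. It was 14.7% and 14.3% with at least 3 checkpoint UMIs and 20.9% and 18.8% with at least 1. Without cells holding 3 or more marker UMIs of other types, Ly6c2 counted, it was 26.1% and 22.4%. That setting left out 405 of 473 and 243 of 330 checkpoint-positive cells. Genes higher and lower with creatine numbered 17 and 12 without those cells (690 genes tested), 337 and 282 from 50 UMIs on, 38 and 23 from 500 on, and 21 and 13 at a fold of 2, and 74 were lower with mitochondrial, ribosomal protein and histone genes left out of the total. Type I ISGs higher with creatine numbered 7 after reduction, 0 without cells holding 3 or more marker UMIs, 5 from 500 UMIs on and 5 at a fold of 2. Against checkpoint-low cells, genes higher and lower numbered 200 and 137 with DESeq2, 792 and 786 from 10 UMIs on, 186 and 189 after reduction (170 and 151 shared) and 88 and 67 without cells holding 3 or more marker UMIs (73 and 24 shared, 936 genes tested). Against dividing cells they numbered 343 higher with DESeq2, 419 higher with no library block, 190 and 562 after reduction and 132 and 290 without cells holding 3 or more marker UMIs. After reduction, 11 of the creatine genes went 1.5-fold beyond dividing cells, and 6 genes were lower in the Havcr2 split. Thinned to 4000 UMIs, Ifng was found in 45.4% and 54.2% and Gzmb in 64.3% and 73.7% of cells.

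Creatine ratios changed sign after reduction for Ccl1 (0.52), Chil3 (0.11) and Cxcl9 (-1.18), in cells of 4000 to 12000 UMIs for Ccl1 (1.12), Cxcl10 (-0.18) and Lyz2 (-0.98), without cells holding 10 or more marker UMIs (chosen after seeing the data) for Chil3 (0.0023), Gm26917 (0.018) and Lyz2 (-0.33), without cells holding 3 or more for Cxcl9 (-0.36), Gbp2 (-0.17), Gm26917 (0.069), Gzma (-0.087), Ifit3 (-0.61), Itgb7 (-0.13) and Serpine2 (-1.43), with at least 3 checkpoint UMIs for Gm26917 (0.024), and with cells weighted equally for Serpine2 (-0.37). After reduction, differences changed sign against checkpoint-low cells for Xcl1 (-1.10) and Cxcl10 (-0.81), against dividing cells for Xcl1 (-0.012), Spp1 (0.0035) and Klf2 (-0.31), and in the control Havcr2 split for Chil3 (-0.73) and Ifit3 (0.84). Dct against dividing cells was 0.66 without cells holding 10 or more marker UMIs. Lyz2 and Dct are themselves among the markers counted, so nothing is read from their values without marker-holding cells. Gzma is not among those markers. The causes of these changes were not tested.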
